A study of Mus musculus with 87 samples.

Results

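Collagen genes encode the chains of the collagen proteins, which wind into a triple helix and form fibrils, nets and anchors outside the cell. They were chosen by symbol, as every gene named Col, a number, the letter a and a number in all 10 gene count tables. This gave 44 of 25277 gene symbols: 11 chains of fibrillar collagens, 8 chains of the basement membrane and its border zone, and 25 others. The others comprised 9 fibril-associated chains, 6 chains of beaded filaments (type VI), 4 transmembrane chains, 3 chains of short-chain networks (types VIII and X), the anchoring fibril chain Col7a1, Col26a1 and Col28a1. Each of the 44 passed 1 CPM (a read count scaled to the library's total) in at least one library.

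Polyadenylated RNA was sequenced in 87 mouse libraries of 31 groups. Androgenetic haploid embryonic stem cells (AG-haESC), a cell line whose single genome came from a sperm, were labelled Dnmt WT (n = 3), Dnmt TKO (n = 3) and Dnmt STOP (n = 2). Semi-cloned embryos, made with such a cell in place of a sperm, carried the labels pWT or pIR, with 4 libraries of each label at the 2-cell stage (2C), 3 pWT and 4 pIR morulae, and 4 blastocyst libraries of each. Tissues at E18.5, shortly before birth, formed batch 1 (pTKO against pWT, n = 2 per label, in lung, liver, kidney, heart and brain) and batch 2 (pIR against pWT, n = 4 per label, in liver and heart). On postnatal day 1 (P1), for which the labels give no batch, each of lung, liver, kidney and heart had 3 pWT and 2 pIR libraries. Strain, sex and age beyond the stage are not given in the sources used here, nor what pIR, STOP and the prefix p stand for. Counts of 4 Y-linked genes summed to at most 4 in any library. Nothing states that libraries of a group came from separate animals or cultures, so p-values measure the spread between libraries, which may be technical.

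Total counts ran from 6136789 to 37396693 a library. Dnmt1, the maintenance DNA methyltransferase, stood at 419 to 425 CPM in WT, 68.8 to 74.0 in TKO and 572 to 601 in STOP cells, so its RNA was low in every TKO library and does not check the STOP label. In each tissue the summed markers of that tissue were higher than in any other control tissue, as with the 5 kidney genes, at 1330 to 1826 CPM in batch 1 kidney and at most 14.8 CPM in the other E18.5 tissues. All embryo comparisons rest on 11 control columns that were assigned to pWT by elimination. In bulk samples, fewer cells of a type and less RNA per cell cannot be told apart.

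Fibrillar chains such as Col1a1, Col1a2 and Col3a1 build the tension-bearing fibrils that fibroblasts and related mesenchymal cells lay down. Type IV chains polymerise into the sheet under epithelia and around vessels, which begins with Col4a1 and Col4a2 in the early embryo and gains Col4a3, Col4a4 and Col4a5 in the filters of kidney and lung. Chains need hydroxylation, folding and cutting by a set of shared enzymes before they assemble.

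Stretches of DNA before a RefSeq start of 3 members are shown because the results below turn on them: Col1a2 and Col3a1, which rose together in P1 heart and lung, and Col18a1, which led in liver and rose there. They are taken from the RefSeq promoter table (GRCm38.p6), leave out bases of any GENCODE exon, and run 5′ to 3′ on the gene's strand. Capitals mark matches to CCAAT, to GGGCGG and to CCCTCCC on either strand. Some of these matches share bases.
Col1a2, chr6:4505370-4505492, plus strand: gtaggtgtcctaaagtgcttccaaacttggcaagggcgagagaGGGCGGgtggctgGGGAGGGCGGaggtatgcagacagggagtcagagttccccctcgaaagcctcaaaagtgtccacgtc
Col3a1, chr1:45311288-45311537, plus strand: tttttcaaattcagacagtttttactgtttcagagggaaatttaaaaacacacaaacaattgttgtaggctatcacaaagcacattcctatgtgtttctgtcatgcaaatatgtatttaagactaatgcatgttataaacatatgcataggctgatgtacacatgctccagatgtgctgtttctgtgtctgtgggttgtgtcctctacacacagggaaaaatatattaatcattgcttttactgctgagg
Col18a1, chr10:77166549-77166780, minus strand: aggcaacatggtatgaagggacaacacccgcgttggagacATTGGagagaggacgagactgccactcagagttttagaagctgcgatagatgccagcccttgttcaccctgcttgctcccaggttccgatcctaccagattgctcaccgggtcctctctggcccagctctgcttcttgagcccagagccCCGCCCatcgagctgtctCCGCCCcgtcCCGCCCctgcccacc

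The 250 bases before the RefSeq start held no match to any of the 3 motifs in Col3a1, where 35.2% of bases were G or C. In Col1a2 the same window was 62.0% G or C and held 1 CCAAT, 2 GGGCGG and 4 CCCTCCC. Over the 38 windows of the 35 members in that table, CCAAT occurred in 34.2%, GGGCGG in 57.9% and CCCTCCC in 47.4%. Over all 32851 windows the shares were 33.8%, 32.7% and 19.7%, and the median share of G and C was 52.4% against 59.0% in the collagen windows. The motif CCCTCCC was picked after the windows had been viewed. The GENCODE model of Col1a2 begins further upstream, at chr6:4504814, so the stretch shown for it lies between exons of that model. Col18a1 also has another RefSeq start inside the gene, and gene counts do not separate starts. Col4a1 and Col4a2 face away from each other and share 22 bases at chr8:11312805-11312826, where reads cannot be assigned without the strand.

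Summed collagen RNA was lower in embryos and haploid cells than in tissues and varied between tissues, which was not tested. The summed collagen level was 25.7 to 86.4 CPM in pWT 2C embryos, 61.0 to 73.4 CPM in pWT morulae, 125 to 254 CPM in pWT blastocysts and 166 to 175 CPM in WT haploid cells. In pWT tissues it was 1125 to 2725 CPM in liver, 1549 to 1692 CPM in brain and 6883 to 17083 CPM in heart, kidney and lung. Of the 44 genes, 7 to 13 passed 1 CPM in 2C libraries, 6 or 7 in morulae, 10 to 13 in blastocysts and 14 in haploid cells, against 41 or 42 in brain.

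**Figure D1:**
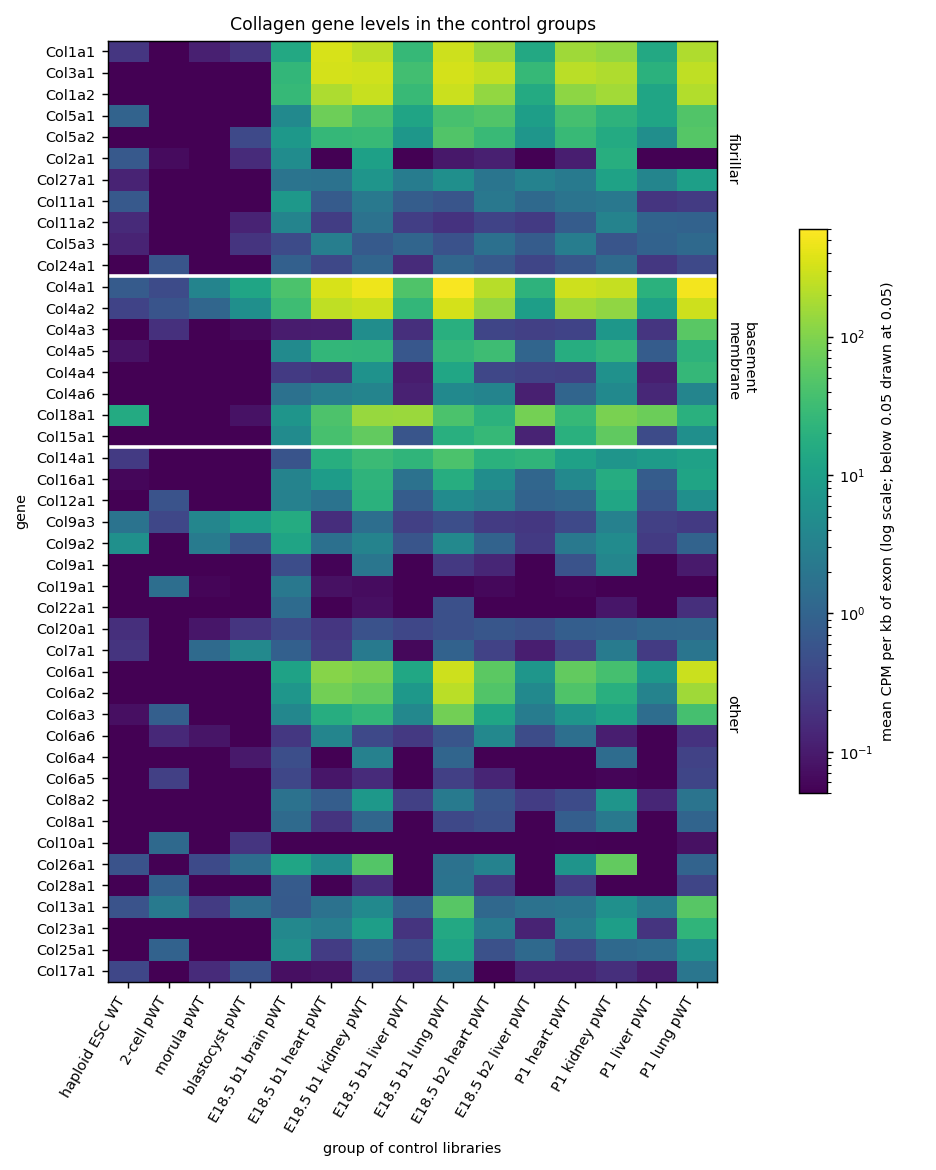
Mean level of each collagen gene in each control group, as CPM per kb of exon on a log colour scale, with genes in rows by class and groups in columns (b1 and b2 are the labels' batches 1 and 2 at E18.5). Col4a1 reaches 555 CPM per kb in E18.5 lung and Col18a1 147 in E18.5 batch 1 liver, while most members are near 0 in embryos and haploid cells.

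Levels of different genes are compared as CPM per kb of exon, here as mean ± SD over libraries. By mean, Col4a1 led in batch 1 brain (42.3 ± 4.79), heart (345 ± 74.6), kidney (478 ± 95) and lung (555 ± 6.22). It also led in P1 heart (291 ± 26.8), kidney (260 ± 22.8) and lung (507 ± 69). In batch 1 heart Col1a1 (336 ± 16.9) and Col3a1 (326.5 ± 4.84) came close behind, inside the spread of Col4a1. Col3a1 led by mean in batch 2 heart (254 ± 49.1 CPM per kb), ahead of Col4a1 (220.4 ± 8.49). Liver differed from the other tissues in its leading gene, Col18a1, which gives rise to endostatin. It stood at 147 ± 6.06 CPM per kb in batch 1, 84.7 ± 6.76 in batch 2 and 72.2 ± 8.39 at P1. The next gene in liver stood at 45.9 ± 13.2 (Col4a1), 27.3 ± 3.88 (Col3a1) and 20.4 ± 2.56 (Col4a1) CPM per kb.

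Before implantation the leading genes were others. In pWT blastocysts they were Col4a1 (12.6 CPM per kb), Col9a3 (9.11), Col4a2 (5.32) and Col7a1 (4.21). In morulae Col9a3 (3.79 CPM per kb) and Col4a1 (3.46) led, followed by Col9a2 (2.52). In 2C embryos the transmembrane chain Col13a1 (2.35 CPM per kb) and Col19a1 (1.49) led. WT haploid cells had Col18a1 (15.8 CPM per kb) and Col9a2 (5.54) in front, and Col4a1 only at 0.738.

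Classes were weighed by their share of the summed CPM per kb, which was not tested. Fibrillar chains made up 46.8% to 55.2% in E18.5 hearts of both batches, 36.2% to 36.8% in E18.5 lung and 34.4% to 34.6% in brain. In liver they made up 27.0% to 35.1% at E18.5, where basement membrane chains took 46.3% to 59.9%. Their share was 9.82% to 10.7% in WT haploid cells, 1.99% to 4.41% in pWT blastocysts and 0.307% to 1.77% in pWT morulae. Chains of neither class took 31.9% to 32.6% in brain, 26.9% to 27.9% in E18.5 lung and 12.7% to 13.5% in hearts of both batches.

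**Figure D2:**
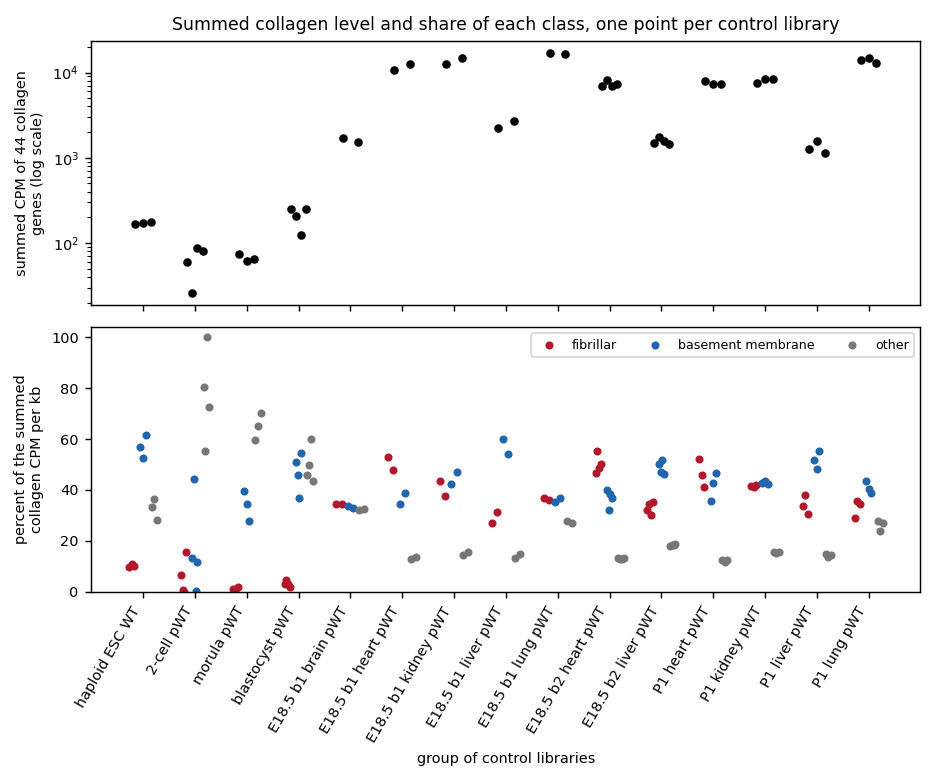
Upper panel, summed CPM of the 44 collagen genes on a log axis; lower panel, percent of the summed collagen CPM per kb taken by fibrillar, basement membrane and other chains; each point is a control library, by group (b1 and b2 are the labels' batches). Fibrillar chains take 0.307% to 1.77% in pWT morulae and 46.8% to 55.2% in E18.5 heart libraries.

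Of the 44 members, 10 had their highest control level per kb in batch 1 lung, 7 in brain, 7 in P1 kidney and 7 in P1 lung. Col10a1, a chain of growth plate cartilage, had its highest mean in 2C embryos (1.25 ± 2.18 CPM per kb), and Col7a1 in blastocysts. The Col10a1 mean rested on pWT 2C library 3, at 14.1 CPM against 0 to 1.29 in the others. Col10a1 also shares 7105 bases with Nt5dc1 on the other strand. Col4a1 and Col4a2 were the members whose mean passed 1 CPM in all 15 control groups. Partner chains of 1 protein followed each other over the 15 control groups, as a description with no test. Pearson's r of log2(CPM + 1) was 0.99 for Col1a1 with Col1a2, 0.99 for Col4a1 with Col4a2, 0.98 for Col4a3 with Col4a4, 1.00 for Col6a1 with Col6a2 and 0.56 for Col9a2 with Col9a3. These points share libraries and depth within a group, and most of their range lies between embryos and tissues. The level of Col1a1 per kb was 0.542 to 1.82 times that of Col1a2 in the 22 groups with both above 1 CPM, and that of Col4a1 was 0.975 to 6.90 times that of Col4a2 in 29 groups.

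Each control tissue was set against the mean of the log values of the other tissues of its stage, so that a tissue near 0 pulls that mean down and a positive difference does not make a tissue the highest. The test was edgeR's quasi-likelihood test with Benjamini-Hochberg adjustment over all genes. Lung stood out by the specialised type IV chains. Col4a3 stood at 151 and 169 CPM in the E18.5 lung libraries, 39.3 and 45.6 in kidney and at most 2.20 in brain, heart and liver. At P1 it stood at 470, 436 and 485 CPM in lung, 42.4 to 86.8 in kidney and at most 4.96 elsewhere. Lung was thus above every other library, with kidney next. The log2 difference of lung was 5.65 ± 0.304 (SE) at E18.5 and 5.90 ± 0.22 at P1 (adjusted p = 1.46e-05 and 1.61e-11), and for Col4a4 it was 4.68 and 5.36. Col13a1, a transmembrane collagen, stood at 172 and 158 CPM in E18.5 lung and at most 15.6 in the other tissues, and at 151, 186 and 166 in P1 lung with at most 21.4 elsewhere. Col17a1, the hemidesmosome collagen, was 3.73 ± 0.215 higher in P1 lung. At E18.5, 34 of 43 members passed in lung (27 higher, 7 lower; 44.6% of all genes passed), and at P1 38 of 42 (28 higher, 10 lower; 70.6% of all genes).

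Kidney had the most Col2a1, the type II chain known from cartilage: 52.3 and 53.6 CPM at E18.5 against 24.2 and 24.9 in brain and at most 0.529 in heart, liver and lung. At P1 the values were 95.5, 80.8 and 101 CPM against at most 1.01 in the other tissues. The log2 difference was 5.56 ± 0.389 and 8.08 ± 0.18. Col26a1 stood at 172, 200 and 152 CPM in P1 kidney and at most 22.8 elsewhere (6.18 ± 0.141), and Col6a4 and Col9a1 were 4.26 and 4.25 higher. The 8 cartilage markers, which include no collagen, summed to 76.1 to 78.9 CPM in P1 pWT kidney, to 26.7 to 48.3 in P1 pWT heart and to 18.6 to 28.1 in P1 pWT lung, and their part in these levels was not tested. In all, 26 of 43 members passed at E18.5 (25 higher, 1 lower; 29.1% of all genes) and 37 of 42 at P1 (25 higher, 12 lower; 67.1%). Without kidney pWT library 2 the E18.5 count was 17.

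In liver 33 members were lower at each stage, where 27.9% of all genes were lower at E18.5 and 37.8% at P1. Col18a1 had the largest positive contrast, at 1025 and 966 CPM at E18.5 against 43.7 and 47.5 in brain and 259.8 and 329 in heart, with kidney at 900 and 1019. At P1 it stood at 473, 555 and 445 CPM in liver and 570 to 681 in kidney, so every kidney library lay above every liver library, and heart and lung lay at 118 to 214. The log2 difference of liver from the mean of the others was 2.90 ± 0.117 at E18.5 and 1.64 ± 0.108 at P1. Col14a1, a fibril-associated chain, differed by 2.01 and 0.57, but lung was above liver at E18.5 (265 and 269 CPM against 147 and 153), and at P1 lung and liver overlapped (58.7 to 79.3 against 51.0 to 60.1 CPM). Col26a1 was lower by -8.11 and -7.09, and Col15a1, the close relative of Col18a1, by -4.24 and -4.82. Col8a1 was at 0 in all 3 P1 liver libraries, and its mean kidney level was 166-fold a floor of 3 counts over the liver group. Against the same kind of floor the mean kidney level of Col6a4, at 0 in both E18.5 livers, was 357-fold. At both stages 37 members passed, of 43 (57.2% of all genes) and of 42 (75.9%), with 4 higher each time.

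Heart carried the type VI chain Col6a6, at 27.7 and 38.3 CPM at E18.5 against at most 5.49 in other tissues, and at 17.3, 11.5 and 13.5 at P1 against at most 2.097. Its log2 difference was 3.64 ± 0.194 and 3.95 ± 0.195. Col1a1 at E18.5 (2.46 ± 0.203) had a positive difference too, and Col4a3 a negative one (-3.21 and -3.72). Col15a1 (2.58 and 1.98) and, at P1, Col11a1 (1.96) had positive differences without being highest in heart. Col15a1 stood at 229 and 233 CPM in E18.5 heart and 349 and 399 in kidney, and at 112 to 121 in P1 heart and 309 to 458 in kidney, with liver at most 6.14. Col11a1 stood at 11.9 to 17.3 CPM in P1 heart and 14.4 to 19.5 in kidney, which overlapped. At E18.5 31 of 43 members passed (17 higher, 14 lower; 46.3% of all genes) and at P1 32 of 42 (19 higher, 13 lower; 66.6%). Brain, sampled at E18.5 alone, had Col19a1 at 10.4 and 8.72 CPM against at most 0.477 in other tissues (5.63 ± 0.422) and Col22a1 at 13.2 and 10.6 against at most 5.41 (5.35 ± 0.58). Col9a3 stood at 50.03 and 49.2 CPM in brain against at most 5.10 (4.88 ± 0.281). Col14a1 (-5.90), Col18a1 (-3.89) and Col1a1 (-3.80) were lower, with Col1a1 at 90.9 and 80.7 CPM in brain and 1830 and 1685 in lung. There 37 of 43 members passed (15 higher, 22 lower; 67.5% of all genes).

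E18.5 and P1 hearts were not compared, because even control hearts of the same day differed between the batches: Col1a1 stood at 1920 and 2062 CPM in batch 1 and at 715 to 1020 CPM in batch 2. Stage and batch cannot be told apart there.

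Between 2C embryos and morulae the low members that were detected differed. The 2C libraries came in another count table than morulae and blastocysts. Stage and a table or library batch therefore cannot be told apart where 2C embryos are compared with later stages. Col7a1 had no count in any pWT 2C library and stood at 10.4, 3.89 and 20.9 CPM in the morulae. Their mean was 281-fold a floor of 3 counts over the 2C group. Col9a2 likewise went from 0 to 3.49, 14.8 and 3.85 CPM, a mean 177-fold that floor. In the other direction Col6a3 went from 5.24, 0, 21.5 and 10.5 CPM to 0 in all 3 morulae. Col12a1 and Col25a1 were also at 0 in all 3 morulae. The 2C means of Col6a3, Col12a1 and Col25a1 were 112-fold, 82-fold and 78.8-fold a floor of 3 counts over the morulae. Libraries of a stage varied widely, with Col25a1 at 97, 21, 385 and 0 counts in 2C embryos. These folds therefore do not bound the change. Of 7 fits with 1 library left out, Col6a3 was tested in 4 and passed in 1, and Col25a1 was tested in 5 and passed in 1. Col7a1, Col9a2 and Col12a1 passed in 7 of 7. Col19a1 fell by 5.25 ± 1.78 on the log2 scale (edgeR adjusted p = 0.0333), from 0.893 to 9.75 CPM to at most 0.518, and did not pass without the filter on low counts. Of 18 members tested 4 rose and 7 fell, where 42.5% of all genes passed. Of the 18, 10 had no count in any library of at least 1 of these stages. Such members entered the test only through the groups where they were detected, so the numbers that rose and fell depend partly on the filter. The count was 6 without 2C pWT library 1, without morula library 1 or without morula library 2, and 4 without morula library 3.

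Col4a1, the first type IV chain, stood at 4.32, 5.08, 0 and 2.00 CPM in pWT 2C libraries, 33.1, 17.4 and 18.3 in morulae and 110.1, 80.7, 40.9 and 100.5 in blastocysts. The 3 stages did not overlap, yet neither step passed (adjusted p = 0.0716 and 0.566). From morula to blastocyst edgeR called 0 of 18 members (4 at unadjusted p under 0.05, DESeq2 1; 2.58% of all genes). Here and below, shares of all genes are at adjusted p under 0.05 and cannot be set against counts at unadjusted p. Col7a1 stood at 28.5 to 52.0 CPM in blastocysts, above all morulae, at adjusted p = 0.469.

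TKO and STOP haploid cells were each compared with WT, to ask how collagen RNA differed from WT under each of these Dnmt labels. Both were set against the same WT libraries, so the results are not independent of each other. Col4a1, Col4a2, Col5a1, Col27a1 and Col5a3 rose in both, that is, the widely expressed type IV chains and 3 minor fibrillar chains. In TKO 7 of 22 tested members passed, 5 higher and 2 lower (14.6% of all genes passed, 9.83% higher and 4.72% lower), with a median log2 fold change of 0.52 against 0.01 over all genes. In STOP 9 of 22 passed, 8 higher and 1 lower (23.1% of all genes passed, 13.8% higher and 9.37% lower), with a median of 0.71 against 0.01.

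Col4a1 stood at 5.31, 4.81 and 4.53 CPM in WT, 13.9, 20.4 and 12.3 in TKO and 15.1 and 22.5 in STOP. No mutant library reached down to the WT libraries. On the log2 scale it was higher by 1.62 ± 0.229 in TKO and 1.84 ± 0.247 in STOP (edgeR adjusted p = 0.00425 and 0.00405). Col4a2 stood at 1.73, 2.31 and 2.36 CPM in WT, 3.79, 9.84 and 7.44 in TKO and 6.73 and 11.5 in STOP, with fold changes of 1.67 and 1.99 on the log2 scale. The collagen gene that leads in these cells, Col18a1, stood at 102 to 116 CPM in WT, 105 to 128 in TKO and 124 to 127 in STOP and did not pass in either.

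Among fibrillar chains Col5a1, which seeds the fibrils of type I collagen, stood at 7.93, 8.39 and 9.20 CPM in WT, 15.7, 15.9 and 14.7 in TKO and 14.3 and 16.8 in STOP. The groups were apart, and the differences on the log2 scale were 0.81 ± 0.138 and 0.77 ± 0.152 (edgeR adjusted p = 0.00744 and 0.0129). Col27a1 went from 0.836 to 1.13 CPM in WT to 2.21 to 3.33 in TKO (1.49 ± 0.267) and 3.55 and 3.89 in STOP (1.84). Col5a3 went from 0.640 to 0.849 CPM to 7.68, 3.18 and 2.00 in TKO (2.39 ± 0.478) and 3.07 and 3.94 in STOP (2.07). All libraries of both genotypes were above WT for these chains.

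Col9a2 (0.78), Col13a1 (1.16) and Col26a1 (2.08) rose in STOP, and in TKO their adjusted p missed 0.05. Col17a1 (-1.01) and Col11a2 (-1.50) fell in TKO and Col11a1 (-0.75) fell in STOP, all below 6 CPM. With 1 library left out Col17a1 and Col11a2 passed in 1 of 6 fits and Col11a1 in 0 of 5. Col17a1 and Col11a2 also did not pass without the filter on low counts or with only WT and TKO in the fit, Col11a2 not in DESeq2, and Col11a1 not without the filter. Col1a1, at log2 fold changes of 0.96 and 0.65, did not pass (adjusted p = 0.30 and 0.483). Whether the genotypes differ from each other was not tested.

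**Figure D3:**
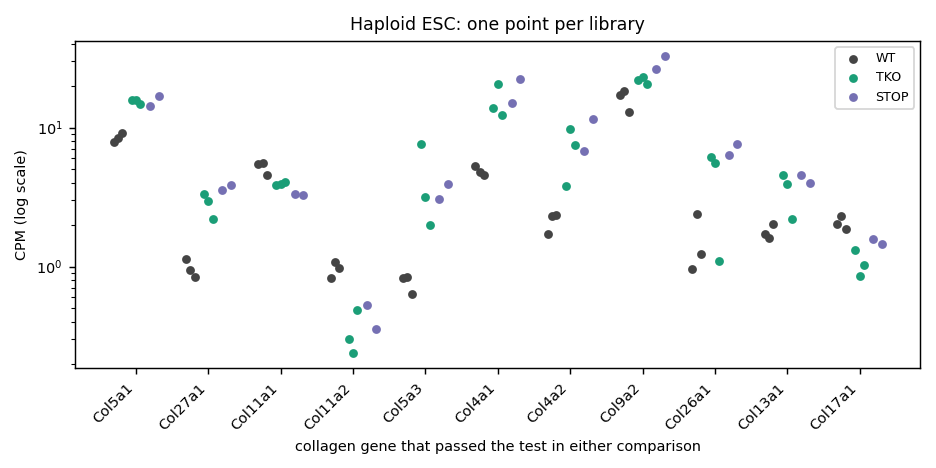
CPM on a log axis of the 11 collagen genes that passed in TKO or STOP haploid cells, 1 point per WT, TKO or STOP library. For Col4a1, Col4a2, Col5a1, Col27a1 and Col5a3 every TKO and STOP library lies above every WT library.

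These counts rest on few libraries. The TKO count was 3 without WT library 1 or 2, 2 without WT library 3 and 4 without TKO library 2, and Col4a1 and Col5a1 passed with any 1 library left out. In STOP the count was 2 without WT library 1, 3 without WT library 3, 5 without WT library 2, 2 without STOP library 1 and 0 without STOP library 2. The 5 endothelium markers summed to 77.4 to 97.2 CPM in WT, 112 to 161 in TKO (2 of 5 genes above all WT libraries) and 143 to 152 in STOP (2 of 5), and the 7 markers of parietal and primitive endoderm to 3.82 to 4.76, 6.41 to 7.75 (3 of 7) and 7.02 to 7.26 (4 of 7). The part of these markers in the result was not tested. The 6 mesenchyme markers were lower, at 10.2 to 13.9 CPM in WT, 4.80 to 6.08 in TKO and 7.21 to 9.19 in STOP, with Tcf21 and Twist2 at 0.

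Of 62 tested genes that handle collagen, in 7 lists (folding, secretion, crosslinking, partners, receptors and breakdown), 6 were higher and 3 lower in TKO, where 14.6% of all genes passed. In STOP 13 were higher and 4 lower, where 23.1% of all genes passed. These counts are near the shares over all genes. Plod2, a lysyl hydroxylase of collagen telopeptides, rose by 1.79 ± 0.236 in TKO and 2.13 ± 0.254 in STOP (edgeR adjusted p = 0.00326 and 0.00279). Mia3, a receptor that loads procollagen into transport carriers, rose by 0.60 and 0.70, Fn1, fibronectin, by 0.79 and 0.70, and the collagen galactosyltransferase Colgalt1 by 0.61 and 0.57.

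In pIR embryos 1 collagen gene passed. Col9a3, a chain of type IX collagen, stood at 29.2, 23.7, 22.5 and 35.7 CPM in pWT blastocysts and 11.1, 6.03, 4.92 and 9.84 in pIR blastocysts. Every pIR library was below every pWT library, and the log2 fold change was -1.62 ± 0.315 (edgeR adjusted p = 0.0114). It was the single call among 8 tested members (10.6% of all genes passed, 6.74% higher and 3.90% lower), and it passed with each of the 8 libraries left out. Without pWT library 3 the count was 2. Col9a3 shares 234 bases with Tcfl5 on the other strand, and Tcfl5 itself stood at 39.4 to 61.2 CPM in pWT and 12.8 to 24.1 in pIR blastocysts. How many of the Col9a3 reads lie in the shared bases cannot be told from gene counts.

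In morulae Col9a3 stood at 16.2, 8.29 and 10.1 CPM in pWT and 8.60, 3.83, 6.53 and 2.53 in pIR, with 1 pIR library inside the pWT range. There edgeR called 0 of 6 members (0 at unadjusted p under 0.05, DESeq2 0; 0.136% of all genes passed, 0.0425% higher and 0.0934% lower), and in 2C embryos 0 of 9 (0 and 0; 0% of all genes). Col4a1 stood at 108, 38.9, 34.4 and 81.8 CPM in pIR blastocysts, with 2 libraries inside the pWT range and 2 below it (log2 fold change -0.16 ± 0.328, adjusted p = 0.787), and Col4a2 did too (-0.09 ± 0.368). The difference between the blastocyst and the morula effect passed for 0 of 15 members (2 at unadjusted p under 0.05, DESeq2 0; edgeR 0% of all genes). Among 42 genes of the collagen lists Agrn, the basement membrane proteoglycan agrin, fell by 1.30 in blastocysts and no other passed.

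pTKO tissues at E18.5 were compared with their batch 1 controls. In heart 4 of 38 members passed, 3 higher and 1 lower, where 26.8% of all genes passed. Col27a1 stood at 11.7 and 14.4 CPM in pWT and 25.4 and 26.3 in pTKO hearts, that is 0.92 ± 0.148 higher on the log2 scale (edgeR adjusted p = 0.0228). Col20a1 rose from 1.05 and 1.21 to 3.68 and 3.49 CPM (1.59) and Col11a2 from 1.10 and 2.42 to 5.90 and 6.99 (1.81). Col6a2 fell from 441 and 522 to 381 and 385 CPM (-0.40). In all 4 the groups were apart. The main fibrillar and type IV chains did not pass, with Col1a1 at -0.27 ± 0.0951, Col1a2 at -0.08, Col3a1 at -0.04, Col4a1 at -0.22 and Col4a2 at -0.32.

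The heart count was 7 without either pWT library and 0 without either pTKO library, and DESeq2 called 11. Without the filter on low counts it was 2, where Col6a2 and Col11a2 did not pass, and Col6a2 did not pass with further tissues in the fit. Liver markers summed to 11.4 CPM in 1 pTKO heart library and 2084 in the other, against 3.81 to 99.8 in pWT. The 6 red cell genes summed to 2750 to 2900 CPM in pWT and 887 to 1753 in pTKO hearts (5 of 6 genes below all pWT libraries). The part of these markers in the result was not tested. Of 78 list genes 12 rose and 4 fell, a smaller share than the 26.8% of all genes that passed, among them the loading receptor Mia2 (1.204), Plod2 (1.38), the collagen-binding integrin chain Itga1 (1.68) and the prolyl hydroxylase chain P4ha1 (0.69).

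In kidney edgeR called 0 of 42 members, 16 at unadjusted p under 0.05, DESeq2 1 and 0% of all genes. Over all 16595 genes 2374 were at unadjusted p under 0.05. The median log2 fold change of the members was -0.33 against 0.00 over all genes. Col1a1 stood at 1413 and 1349 CPM in pWT and 1123 and 1019 in pTKO kidneys, Col1a2 at 1473 and 1457 against 1179 and 1108, and Col3a1 at 1686 and 1662 against 1313 and 1275. Col4a1 stood at 2719 and 3608 CPM against 1863 and 2260, and Col4a2 at 1527 and 2087 against 1028 and 1257. The fold changes of these 5 genes lay between -0.40 and -0.71 on the log2 scale, with an edgeR adjusted p of 0.346 each. How many of all genes had groups as far apart was not counted. Without kidney pWT library 1 the count was 21, and without pWT library 2 it was 4. The kidney markers summed to 1330 to 1826 CPM in pWT and 1005 to 1062 in pTKO (4 of 5 genes lower in both libraries, 1 higher), and the endothelium markers to 923 to 1174 and 753 to 795 (4 of 5 lower). Their part in the difference was not tested.

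In pTKO brain edgeR called 0 of 42 members (6 at unadjusted p under 0.05, DESeq2 0; 1.75% of all genes), in liver 0 of 34 (1, DESeq2 0; 0% of all genes) and in lung 0 of 42 (1, DESeq2 0; 0% of all genes). The shares of all genes are at adjusted p, an unlike threshold to the unadjusted counts beside them. Col18a1 stood at 1025 and 966 CPM in pWT and 1201 and 1370 in pTKO livers, apart but at adjusted p = 0.634. Leaving out 1 library gave 14 in liver without pWT library 1 and 1 without pWT library 2, 16 in lung without pTKO library 2 and 1 without pTKO library 1, and 5 or 4 in brain without pTKO library 1 or 2. The effect of pTKO did not pass as different between the 5 tissues for any of 43 members in edgeR (8 at unadjusted p under 0.05, DESeq2 6; edgeR 0.0106% of all genes), and the count was 4 without liver pWT library 1 and 1 without lung pTKO library 2. In brain the integrin chain Itga2 was lower (-1.29), and no list gene passed in kidney, liver or lung.

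pIR heart and liver at E18.5 showed no passing member. edgeR called 0 of 39 in heart (5 at unadjusted p under 0.05, DESeq2 0; 0.0137% of all genes) and 0 of 34 in liver (3, DESeq2 0; 0%). Col1a1 stood at 715, 1020, 848 and 833 CPM in pWT and 699.9, 729.9, 1017 and 1101 in pIR hearts, and the groups overlapped widely (log2 fold change 0.07 ± 0.153). Col4a1 stood at 1538, 1448, 1408 and 1439 against 1425, 1416, 1355 and 1466 CPM (-0.03 ± 0.0542). In liver Col18a1 stood at 587, 617, 588 and 509.6 CPM in pWT and 634, 593, 653 and 644 in pIR (0.14 ± 0.0715, adjusted p = 0.919). The count stayed at 0 with any 1 library left out. The effects in heart and liver differed for 0 of 40 members (2 at unadjusted p under 0.05, DESeq2 0; edgeR 0.00622% of all genes).

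**Figure D4:**
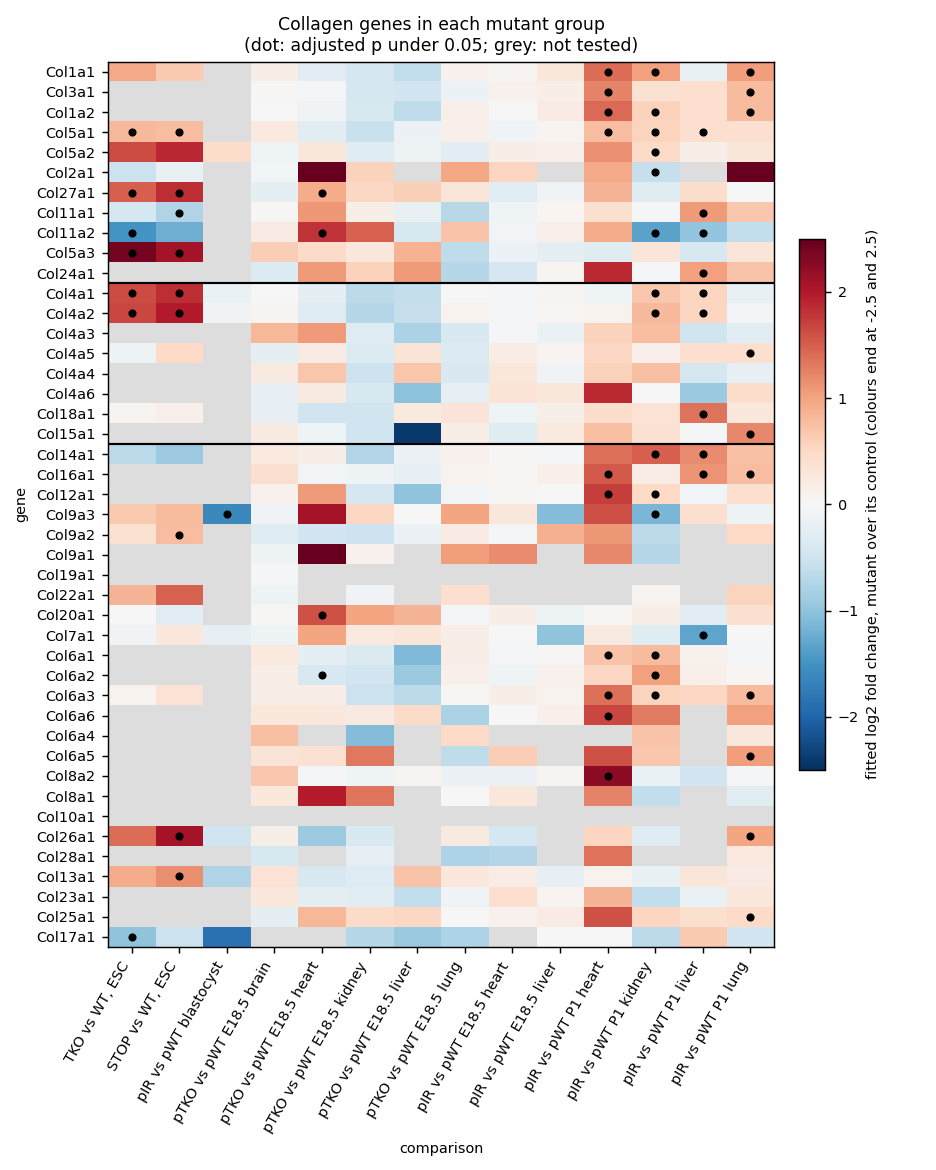
Fitted log2 fold change of each collagen gene in 14 mutant groups against their own controls (2-cell embryos and morulae are not drawn), with genes in rows by class; colours end at -2.5 and 2.5, dots mark adjusted p under 0.05, and grey cells were not tested. The E18.5 pIR columns hold no dot, where 0.0137% of all genes passed in heart and 0% in liver. The P1 columns for heart, kidney, liver and lung hold 10, 14, 10 and 10 dots, where 2.32%, 10.6%, 39.2% and 2.6% of all genes passed.

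At P1 all 4 pIR tissues had passing members. In heart 4 of 11 fibrillar and 3 of 6 type VI chains rose, where 1.54% of all genes were higher, and none of the 6 type IV chains passed. Col1a1 stood at 1059, 966 and 742 CPM in pWT hearts and 2071 and 3102 in pIR hearts. Col1a2 stood at 828, 593 and 498 against 1400 and 2229, and Col3a1 at 1476, 1207 and 1120 against 2468 and 3894. Both pIR libraries were above all 3 pWT libraries for each. On the log2 scale they were higher by 1.39 ± 0.24, 1.41 ± 0.265 and 1.23 ± 0.238 (edgeR adjusted p = 0.0421, 0.0433 and 0.0453). Col4a1 stood at 1748, 1926 and 2102 CPM against 1864 and 1976, inside the control range (-0.10 ± 0.188, adjusted p = 0.778), and Col4a2 at 875.5, 1049 and 1099 against 1113 and 1190, slightly above it (0.09 ± 0.181, adjusted p = 0.786). Col4a5 (0.52 ± 0.189, adjusted p = 0.144) and Col4a6 (1.86 ± 0.436, adjusted p = 0.0645) were above all pWT libraries in both pIR hearts without passing.

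In all, 10 of 40 members passed in P1 heart, each of them higher (2.32% of all genes passed, 1.54% higher), and the median log2 fold change of the members was 0.93 against 0.00 over all genes. Col5a1 (0.78 ± 0.137) was the fourth fibrillar chain. Among type VI chains, which bind cells to the matrix around them, Col6a1 stood at 274, 237 and 258 CPM against 426 and 465, Col6a3 at 93.5, 62.5 and 63.0 against 142 and 260.2, and Col6a6 at 17.3, 11.5 and 13.5 against 40.2 and 54.9. All 3 were apart, at 0.71, 1.37 and 1.67 ± 0.195 on the log2 scale. The fibril-associated chains Col12a1 (18.1, 17.4 and 8.39 against 54.8 and 49.9 CPM) and Col16a1 (26.9, 21.7 and 16.1 against 53.1 and 80.8 CPM) rose by 1.74 and 1.54. Col8a2, a chain known from vessel walls and the cornea, went from 0.990 to 2.90 CPM to 10.7 and 8.34 (2.23 ± 0.431).

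The number of passing members in heart depended on the libraries: it was 17 without pIR library 1, 1 without pWT library 1 and 0 without pWT library 2, pWT library 3 or pIR library 2. DESeq2 called 20, and a fit without a filter on low counts 18. The fold change of Col1a1 lay between 1.09 and 1.63 when 1 library was left out. The 5 heart markers summed to 38468 to 48690 CPM in pWT and 32521 to 35165 in pIR hearts (3 of 5 genes below all pWT libraries), and the endothelium markers to 1559 to 1905 and 1377 to 1546 (2 of 5 below). The 6 mesenchyme markers summed to 257 to 318 CPM in pWT and 372 to 434 in pIR hearts (3 of 6 genes above all pWT libraries), the 8 cartilage markers to 26.7 to 48.3 and 76.3 to 97.9 (4 of 8), and the 6 red cell genes to 3715 to 4578 and 2081 to 2389 (5 of 6 below). Their part in the result was not tested. Of 77 list genes 11 were higher and 1 lower, where 1.54% of all genes were higher and 0.786% lower. Thbs2 (1.31 ± 0.164), which binds collagen fibrils, the uptake receptor Mrc2 (0.99) and the gelatinase Mmp2 (0.96) rose, and Timp4, an inhibitor of such proteases, fell by 2.72 ± 0.193 (adjusted p = 0.00327).

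**Figure D5:**
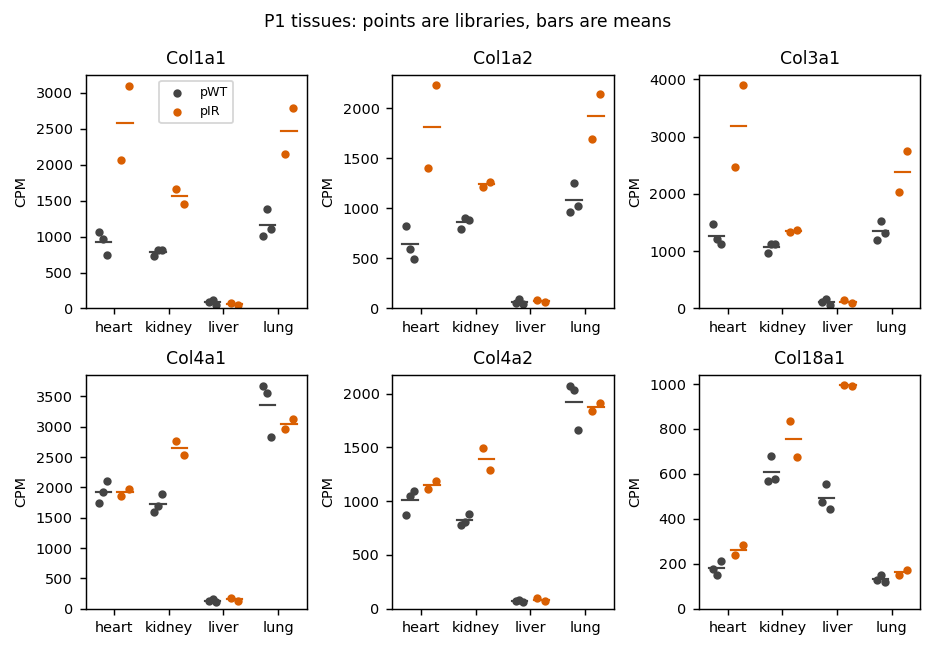
CPM of Col1a1, Col1a2, Col3a1, Col4a1, Col4a2 and Col18a1 in the P1 tissues on linear axes from 0, with pWT and pIR side by side; points are libraries and bars are means. Col1a1 in heart lies at 742 to 1059 in pWT and 2071 to 3102 in pIR, Col4a1 in heart at 1748 to 2102 and 1864 to 1976, and Col18a1 in liver at 445 to 555 and 993 to 997.

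In P1 lung type I and type III chains were higher too. Col1a1 stood at 1002, 1387 and 1100 CPM in pWT and 2146 and 2784 in pIR lungs, Col1a2 at 963, 1249 and 1027 against 1696 and 2144, and Col3a1 at 1201, 1524 and 1318 against 2031 and 2752. The groups were apart for the 3 genes, higher on the log2 scale by 1.05 ± 0.148, 0.80 ± 0.132 and 0.79 ± 0.139 (edgeR adjusted p = 0.0144, 0.0229 and 0.0285). Col4a1 stood at 3676, 3548 and 2830 CPM against 2956 and 3128 (-0.18 ± 0.127, adjusted p = 0.476), and Col4a2 at 2075, 2031 and 1661 against 1840 and 1913 (-0.07, adjusted p = 0.768), both within the control range. In lung 10 of 41 members passed, again each of them higher (2.6% of all genes passed, 1.52% higher and 1.07% lower), at a median of 0.41 over the members and -0.01 over all genes.

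The other calls in lung included Col16a1 (56.4, 71.3 and 62.4 against 109 and 114 CPM, 0.78), Col6a3 (362, 399 and 459.9 against 672 and 772 CPM, 0.80) and Col15a1 (27.6, 40.8 and 30.1 against 87.3 and 66.6 CPM, 1.19). Col4a5, the type IV chain that pairs with Col4a3 and Col4a4, rose from 137 to 151 CPM to 198 and 192 (0.41, adjusted p = 0.045), and Col25a1 (0.47), Col6a5 (1.04) and Col26a1 (0.99) also passed. Without either pIR library the count was 0, without pWT library 3 it was 2, and without pWT library 2 it was 6. It was 1 when all P1 tissues shared a fit. The mesenchyme markers summed to 816 to 928 CPM in pWT and 859 to 926 in pIR lungs (2 of 6 genes higher, 1 lower), and the red cell genes to 17377 to 27121 and 8479 to 11306 (6 of 6 lower). Their part in the result was not tested. Of 79 list genes 2 passed, where 2.6% of all genes passed, Mmp2 (0.76) and the prolyl 3-hydroxylase P3h3 (0.53), both higher.

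P1 kidney had 14 of 41 members past the threshold, 11 higher and 3 lower (7.58% of all genes were higher and 3.06% lower). Here type IV chains rose beside type I chains. Col1a1 stood at 735, 810 and 818 CPM in pWT and 1660 and 1456 in pIR kidneys, that is 1.03 ± 0.101 higher on the log2 scale (edgeR adjusted p = 0.00335). Col4a1 stood at 1590, 1691 and 1887 against 2765 and 2539 CPM (0.67 ± 0.102, adjusted p = 0.0106) and Col4a2 at 776, 809.6 and 885 against 1495 and 1286 (0.80 ± 0.104, adjusted p = 0.00681). Every pIR library was above every pWT library for these 3 genes. Col14a1 (42.7, 34.8 and 50.9 against 101 and 131 CPM, 1.49), Col6a2 (1.02) and Col1a2 (0.57) rose as well, while Col3a1 missed the threshold at 0.39 ± 0.103 (adjusted p = 0.0504) and passed in 5 of 6 other settings, DESeq2 among them. Col1a2 did not pass when all P1 tissues shared a fit.

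The 3 genes that fell in kidney are chains known from cartilage. Col11a1, a partner chain of Col11a2, was not among them. Its level per kb was 0.580 to 0.695 times that of Col11a2 in pWT and 1.49 to 1.66 times in pIR kidneys. Col11a2 went from 20.5, 23.1 and 20.1 CPM to 8.05 and 8.11 (-1.34, adjusted p = 0.00587), Col9a3 from 9.19, 11.4 and 7.32 to 3.93 and 4.26 (-1.14) and Col2a1 from 95.5, 80.8 and 101 to 67.3 and 52.1 (-0.58, adjusted p = 0.0405). The groups were apart in each, and Col9a3 and Col2a1 did not pass when all P1 tissues shared a fit. Cartilage markers other than collagens summed to 76.1 to 78.9 CPM in pWT and 47.2 to 57.8 in pIR kidneys (3 of 8 genes lower, 1 higher; Ucma at 0). The 5 kidney markers summed to 631 to 766 and 1545 to 1700 CPM (3 of 5 higher), the endothelium markers to 552 to 616 and 795 to 902 (4 of 5 higher) and the bone markers to 28.0 to 48.8 and 103 to 109.7 (1 of 5 higher). Their part in the result was not tested. Col1a1, Col14a1 and Col11a2 passed with any 1 library left out, and the count was 3 without pWT library 1, 6 without pIR library 1 and 9 without pIR library 2. Of 76 list genes 13 rose and none fell, where 7.58% of all genes rose and 3.06% fell, among them Thbs2 (1.33), decorin, Dcn (0.79), Colgalt2 (1.25) and the nidogen Nid2 (0.56).

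P1 liver had 10 of 32 members past the threshold, 8 higher and 2 lower, where 39.2% of all genes passed, 20.7% higher. Col18a1, the leading collagen of liver, stood at 473, 555 and 445 CPM in pWT and 997 and 993 in pIR livers. The groups were far apart, and the log2 fold change was 1.36 ± 0.149 (edgeR adjusted p = 3.02e-05). It passed with any 1 library left out, as did Col14a1 (60.1, 58.3 and 51.0 against 116 and 86.3 CPM, 1.18, adjusted p = 6.61e-05). Slc19a1, on the other strand across 8825 bases of Col18a1, stood at 7.60 to 8.64 CPM in pWT and 7.55 to 8.70 in pIR livers.

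The calls of Col4a1 and Col4a2 in liver held in all 6 alternative settings, median-of-ratios scaling among them. They depended on the libraries: Col4a1 did not pass without pWT library 1 or 3, and Col4a2 did not pass without pWT library 3. Col4a1 stood at 134, 153 and 119 CPM in pWT and 182 and 129 in pIR livers and Col4a2 at 70.1, 79.1 and 67.3 against 98.2 and 68.7, so both overlapped in CPM. After the TMM scaling of the test, whose factors were 1.09 to 1.12 in pWT and 0.845 to 0.89 in pIR, Col4a1 stood at 119.6, 141 and 109 against 205 and 153, without overlap, and passed (0.54 ± 0.16, adjusted p = 0.0185), as did Col4a2 (0.55, adjusted p = 0.0141). Col1a1 did not pass in liver, at 86.9, 123 and 52.2 against 72.3 and 49.3 CPM (-0.19 ± 0.273, adjusted p = 0.62). Col16a1 (1.12), Col24a1 (1.03), Col11a1 (1.06) and Col5a1 (0.42) rose, and Col11a2 (-0.99) and Col7a1 (-1.31) fell. Col24a1, Col11a1, Col5a1, Col11a2 and Col7a1 each passed in 1 of 5 fits with a library left out. In DESeq2 Col24a1, Col11a1 and Col7a1 did not pass, nor did Col24a1 when all P1 tissues shared a fit. Col5a1 overlapped in CPM (101 to 107 against 128 and 91.7) and not after scaling.

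In liver the 5 liver markers summed to 36901 to 45944 CPM in pWT and 93798 to 105816 in pIR (5 of 5 higher), and the red cell genes to 55017 to 68688 and 15322 to 23501 (5 of 6 lower). Their part in the result was not tested. The count was 6 without pWT library 1 or pIR library 2, 3 without pWT library 3 and 2 without pIR library 1. Of 76 list genes 23 rose and 5 fell, close to the 39.2% of all genes that passed. Pcolce2, an enhancer of procollagen cutting, rose by 2.64 ± 0.212 (adjusted p = 4.29e-06), fibronectin, Fn1, by 1.73, the COPII coat gene Sec24d by 1.42 and P4hb, a subunit of prolyl 4-hydroxylase, by 1.38.

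The share of fibrillar chains in summed collagen CPM per kb moved with these genes and was not tested. It was 41.0% to 52.2% in pWT and 59.2% to 66.8% in pIR hearts, and 28.8% to 35.5% and 43.98% to 48.3% in lungs. In kidney it was 41.3% to 41.95% against 41.4% to 43.7%, and in liver 30.5% to 38.1% against 21.4% to 25.8%. Summed collagen was higher in both pIR libraries of each tissue, at 11897 and 16095 CPM against 7318 to 7932 in heart, 11305 and 12192 against 7519 to 8444 in kidney, 16223 and 18860 against 12862 to 14688 in lung, and 1738 and 2014 against 1125 to 1570 in liver.

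Whether the pIR effect differed between the 4 P1 tissues was tested as an interaction over all P1 libraries. It passed for 15 of 42 members, where 25.3% of all genes passed, and the count was 12 to 20 with 1 library left out. Col18a1 had the smallest p, at log2 fold changes of 0.45 in heart, 0.36 in kidney, 1.36 in liver and 0.26 in lung (edgeR adjusted p = 0.00428). Col12a1 was raised most in heart, at 1.74, 0.49, -0.08 and 0.42 in the same order (adjusted p = 0.00758). Col16a1 was at 1.54, 0.19, 1.12 and 0.78 (adjusted p = 0.00875). Col11a2 was at 0.92 in heart, where it did not pass and pIR library 2 (5.52 CPM) lay inside the pWT range (3.07 to 6.08 CPM; pIR library 1 at 13.8), and at -1.34, -0.99 and -0.62 in kidney, liver and lung (adjusted p = 0.00909, and 0.087 without heart pIR library 1). Col27a1, at 0.84, -0.31, 0.44 and -0.02 (adjusted p = 0.00839), and Col8a1, at 1.24 in heart, -0.62 in kidney and -0.27 in lung (adjusted p = 0.0096), took both signs, and neither passed in any tissue where it was tested. Col1a1, Col4a1 and Col4a2 were also among the 15 (adjusted p = 0.0278, 0.0226 and 0.0232).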

How the data were processed

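Raw gene counts were deposited by the authors in 10 tables; per the submitters' processing notes they used Trim Galore 0.6.6, HISAT2 2.1.0, featureCounts 1.6.4 and mm10. Strand and multiple mapping are not given in the sources used here. The labels' protocols describe a poly(A) kit and a low-input kit without saying which library had which. Groups came from the labels. Counts were tested as deposited with edgeR 4.0.16 (R 4.3.3): TMM scaling, filterByExpr at a minimum count of 10, the quasi-likelihood test, and Benjamini-Hochberg adjustment over all genes tested at 0.05, in 16 genotype comparisons, 9 tissue contrasts, 2 stage contrasts and 4 tests of a difference between effects. Genotype fits used the libraries of their own comparison, except that WT, TKO and STOP cells shared 1 fit; embryo control libraries are numbered as in their column names. CPM is the count scaled to the library total, and CPM per kb divides by the union of exons (GENCODE M21). The steps were tested on simulated data. Intervals are standard errors of log2 fold changes. Alternatives were leaving out each library, a replicate block, further groups in the fit, no filter, median-of-ratios scaling and DESeq2 1.42.0. Named were, per control group, the 5 members of highest level per kb; per genotype comparison, every passing member up to 12 (otherwise 6 of smallest p each way) and Col1a1, Col1a2, Col3a1, Col4a1 and Col4a2; per tissue or stage contrast, the 4 largest passing changes each way at a mean of 5 CPM or more; per test of a difference between effects, the 6 of smallest p; and up to 4 list genes. Other members named were picked after their values were seen. Members and lists were chosen with earlier results of these data known.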

Additional observations from a re-analysis of the deposited data

Results flagged for a closer look

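Of 115 groups of values with 4 or more libraries, 6 held a library that stood apart by Dixon's test, and chance gives about 1 in 20. Col10a1 stood at 14.1 CPM in pWT 2C library 3 and at 0 to 1.29 in the other 3. Its neighbour on the other strand, Nt5dc1, shares 7105 bases with it and stood at 14.1 CPM in that library. In pWT 2C libraries 1, 2 and 4 Nt5dc1 stood at 27.8, 9.38 and 42.9 CPM. The basement membrane chains summed to 0.0833 CPM in pWT 2C library 3 and to 10.4 to 12.1 in the others. In pIR morula library 1 the fibrillar chains summed to 8.48 CPM and made up 8.15% of summed collagen CPM per kb, against at most 0.489 CPM and 0.926% in the other 3. In E18.5 batch 2 heart, pIR library 3 had Col4a2 at 813 CPM against 872 to 883 in the other pIR libraries, and 38 members above 1 CPM against 35.

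The pIR effect differed between P1 heart, kidney, liver and lung for 15 members by edgeR's test of the interaction, led by Col18a1 (adjusted p = 0.00428), Col12a1 (0.00758), Col27a1 (0.00839), Col16a1 (0.00875), Col11a2 (0.00909) and Col8a1 (0.0096). Col8a1 was at 0 in all pWT P1 liver libraries.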

How the results depend on the processing

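Counts of passing members stayed within 1.5 times under median-of-ratios scaling (31 of 31 results), without haemoglobin genes (20 of 20), without the filter (28 of 31), with the replicate block (22 of 25), in DESeq2 (26 of 31), with further groups in the fit (22 of 24) and in 228 of 273 fits that left out 1 library. Without the filter the count was 1 in pTKO brain, 2 in pTKO heart and 18 in P1 heart. DESeq2 gave 11 in pTKO heart, 1 in pTKO kidney, 20 in P1 heart, 1 from morula to blastocyst and 6 for pTKO across tissues. With further groups it was 19 in P1 heart and 1 in P1 lung. Leaving out 1 library gave 2 to 10 in TKO and 0 to 5 in STOP cells, 1 to 2 in blastocysts, 0 to 5 in pTKO brain, 0 to 7 in heart, 0 to 21 in kidney, 0 to 14 in liver, 0 to 16 in lung and 0 to 4 across them, 0 to 17 in P1 heart, 3 to 14 in kidney, 2 to 11 in liver and 0 to 7 in lung, 17 to 31 for E18.5 kidney against other tissues and 4 to 9 from 2C to morula. The cause was not tested.

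With the replicate number as a block the count was 1 in pTKO heart (Col27a1), 2 in P1 heart (Col6a6 and Col12a1) and 16 in P1 lung. Under the block Col17a1 and Col11a2 in TKO, Col13a1, Col26a1 and Col11a1 in STOP and Col24a1, Col5a1, Col11a1 and Col7a1 in P1 liver did not pass, and Col3a1 in P1 kidney and Col1a1 in P1 liver did. Same-numbered libraries correlated at 0.01 to 0.23 in TKO cells, 0.11 and 0.14 in STOP cells and -0.34 to 0.17 in pTKO tissues. The values were 0.19 in P1 lung, -0.16 to 0.06 in the other P1 tissues and -0.1 to 0.56 between E18.5 pWT tissues. No comparison with 3 or more shared numbers had every pair over 0.1. Where only 2 numbers were shared, pairing could not be decided, because so few pairs cannot settle it. In STOP cells, pTKO lung and P1 lung both pairs were over 0.1. Crossed numbers, tried after seeing the data, gave 3 in pTKO heart and 0 in kidney and liver. No paired analysis was possible for embryos because the control columns were matched to pWT as a group, so the numbers in their names are not tied to the labels' numbers.

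Signs turned only for members that had not passed. With 1 library left out, the log2 fold change in morulae was -0.757 to 0.747 for Col4a2. In blastocysts it was -0.477 to 0.033 for Col4a1, -0.324 to 0.279 for Col4a2. In pTKO brain it was -0.143 to 0.123 for Col4a1, -0.038 to 0.162 for Col4a2, -0.164 to 0.369 for Col1a1, -0.256 to 0.233 for Col1a2, -0.333 to 0.291 for Col3a1. In pTKO heart it was -0.192 to 0.087 for Col1a2, -0.097 to 0.059 for Col3a1. In pTKO lung it was -0.317 to 0.280 for Col4a1, -0.234 to 0.337 for Col4a2, -0.171 to 0.327 for Col1a1, -0.108 to 0.30 for Col1a2. In E18.5 pIR heart it was -0.047 to 0.006 for Col4a2, -0.062 to 0.164 for Col1a1, -0.103 to 0.134 for Col1a2, -0.026 to 0.230 for Col3a1. In E18.5 pIR liver it was -0.001 to 0.131 for Col4a1, -0.007 to 0.151 for Col4a2. In P1 heart it was -0.018 to 0.157 for Col4a2. In P1 liver it was -0.442 to 0.166 for Col1a1. In P1 lung it was -0.182 to 0.009 for Col4a2. The block gave -0.001 and -0.008 for Col1a2 and Col3a1 in pTKO brain, -0.012 for Col4a1 in pTKO lung and -0.003 for Col1a2 in E18.5 pIR heart, and further groups gave 0.012 for Col4a1 in pTKO brain.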
